A study of Mus musculus with 12 samples.

Results

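The natriuretic peptide system was described through 8 of the 22584 genes in the deposited count table: the ligand genes Nppa, Nppb and Nppc, the receptor genes Npr1, Npr2 and Npr3, and the peptidase genes Corin and Mme. Their rows were found by gene symbol, and the genes were chosen with earlier results of these data known. Of the 8 genes, 7 had enough reads to be tested, and Nppc did not. Polyadenylated RNA came from cardiomyocytes isolated from hearts of wild-type C57BL6 mice. The 12 libraries made 4 groups of 3, since sham-operated mice and mice of a model named CKD were each injected with saline or with JV001. Mice of the CKD model received AngII and a high salt diet and lost 1 kidney (uninephrectomy). The sham saline, sham JV001 and CKD JV001 groups are given 12 weeks, and no duration is given for CKD saline. The labels give JV001 as a code name without a description, while the title of the series refers to gene therapy directed at telomeres in cardio-renal syndromes. The sources used here do not give the mice's ages, the dose of JV001 or the chambers from which the cells came.

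Natriuretic peptides are hormones and local signals that lower blood pressure and blood volume. Atrial myocytes make most of the atrial peptide encoded by Nppa, while Nppb, the B-type peptide gene, is also active in ventricular myocytes and is widely read as a sign of wall stress. Corin, a serine protease in the cardiomyocyte membrane, cuts the atrial precursor into its active form. Npr1 and Npr2 encode receptors that make cyclic GMP, the first for the atrial and B-type peptides and the second for the C-type peptide of Nppc. Npr3 encodes a receptor that takes all 3 peptides up for breakdown, and Mme encodes neprilysin, a peptidase of the cell surface that degrades them.

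The peptides carry a loop of 17 residues closed by a disulfide bond, which is the part the receptors bind. The bases that encode this loop are shown for the B-type and C-type genes because the loop is the stretch that related ligands share; both lie in exon 2 of 3, in GENCODE M21 transcripts on GRCm38, and capitals mark bases that are the same in both genes. The Nppb stretch lies at chr4:147986464-147986514 on the plus strand and the Nppc stretch at chr1:86669667-86669717 on the minus strand.
Nppb: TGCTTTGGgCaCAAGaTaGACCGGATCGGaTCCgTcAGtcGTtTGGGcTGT
Nppc: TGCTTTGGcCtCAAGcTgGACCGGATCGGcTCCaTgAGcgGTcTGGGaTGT
Nppb and Nppc shared 40 of these 51 bases, although they lie on different chromosomes.

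Per library, 25.2 to 37.0 times 1e6 counts were deposited, and 3 counts, the limit that a count of 0 allows, were worth 0.0777 to 0.119 CPM (counts per 1e6 counts, scaled with TMM factors). Markers of ventricular cardiomyocytes were abundant in every library, with 12 of 12 markers detected. Library 3 of both CKD groups stood apart from libraries 1 and 2. The 12 ventricular markers summed to 56141 CPM in CKD saline library 3, against 100408 and 101071 CPM in libraries 1 and 2. They summed to 28081 CPM in CKD JV001 library 3, against 61603 and 62048 CPM in libraries 1 and 2. The 8 neutrophil markers summed to 81.3 CPM in CKD saline library 3, against 3.66 and 4.82 CPM in libraries 1 and 2, and to 317 CPM in CKD JV001 library 3, against 16.4 and 15.8 CPM. They summed to 0.907 to 6.36 CPM in the 6 sham libraries, where 1 to 5 of the 8 had no reads. The 10 macrophage markers summed to 344 CPM in CKD saline library 3, against 73.8 and 67.8 CPM, and to 741 CPM in CKD JV001 library 3, against 330.2 and 329 CPM. CKD saline libraries 1 and 2 were closely alike, with a median chi-square per gene of 2.09 where sampling noise gives 0.455; CKD JV001 libraries 1 and 2 had 2.40, and the other pairs within groups had 4.38 to 26.0. These pairs differed by more than sampling noise and were kept as separate libraries. The labels do not say that replicates came from separate animals, so the p-values reflect the spread among these libraries alone, and that spread may be technical. In bulk RNA, fewer cells of a type and less RNA per cell cannot be told apart.

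Levels can be set side by side per length, in FPKM (fragments per kilobase and 1e6 reads). By the median over 12 libraries the order was Nppa at 876 FPKM, Nppb at 233, Corin at 34.8, Npr2 at 14.7, Npr1 at 8.17, Npr3 at 2.30, Mme at 0.740 and Nppc at 0. Some neighbours in this order overlapped. Nppa was above Nppb in 9 of 12 libraries, Corin above Npr2 in 10 of 12 and Npr2 above Npr1 in 11 of 12. Nppb was above Corin, Npr1 above Npr3, and Npr3 above Mme in 12 of 12 libraries each. The range over libraries also differed between genes. The highest CPM was 19.5 times the lowest for Nppa, 14.9 times for Nppb and 6.88 times for Npr1. It was 3.77 times the lowest for Corin, 3.33 times for Npr3, 2.24 times for Mme and 1.57 times for Npr2.

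**Figure D1:**
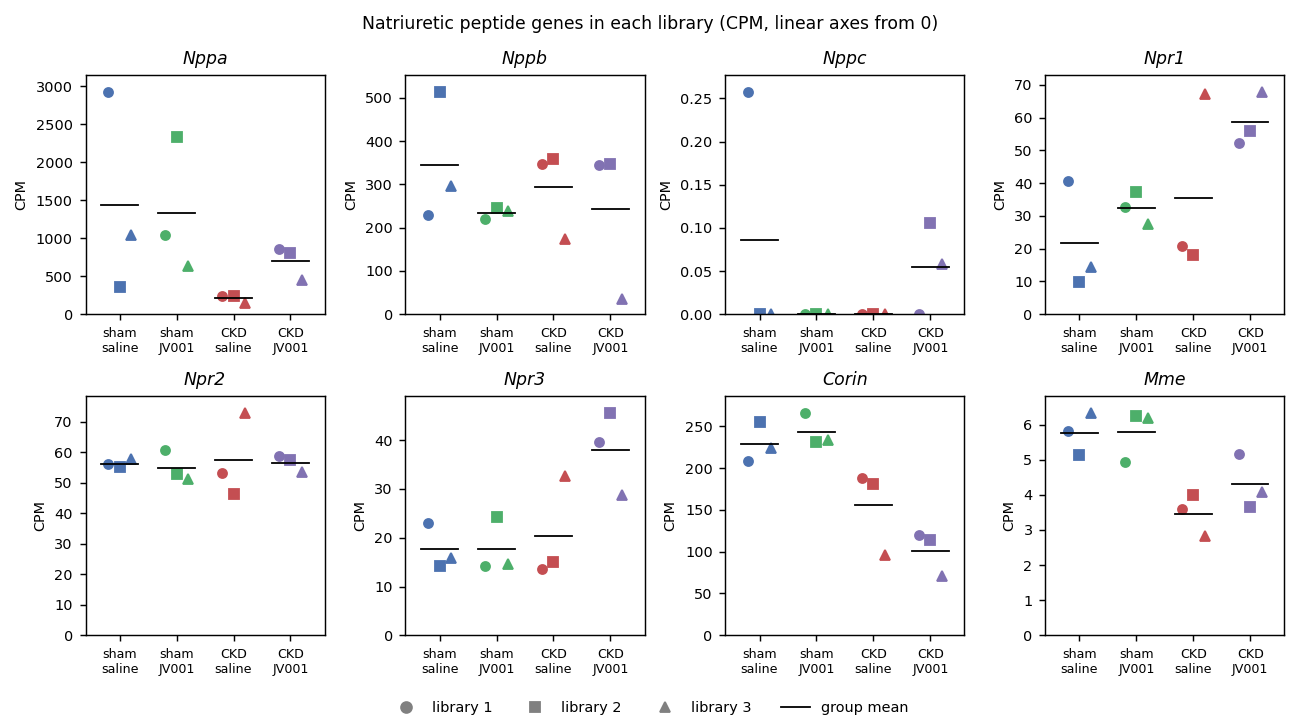
Level of each of the 8 genes in each library, in CPM on linear axes that start at 0, by group; symbols mark libraries 1, 2 and 3 and the black line is the group mean. Nppa spreads from 356 to 2922 CPM for sham saline and stays between 150 and 238 CPM for CKD saline, whereas Npr2 stays between 46.2 and 72.7 CPM in all 12 libraries.

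Nppa had the widest spread of the 8 genes. Its level was 2922, 356 and 1046 CPM in sham saline libraries 1 to 3 and 1048, 2329 and 628 CPM for sham JV001. It was 238, 238 and 150 CPM for CKD saline and 855, 810 and 454 CPM for CKD JV001. All 3 CKD saline libraries lay below the other 9 libraries, and CKD JV001 overlapped both sham groups. Group means were 1441 ± 1328 CPM for sham saline, 1335 ± 886 for sham JV001, 208 ± 51.0 for CKD saline and 706 ± 219 for CKD JV001 (SD, n = 3). The log2 fold change of Nppa was -2.79 (SE 0.69) in CKD saline against sham saline, with an unadjusted p of 0.00194 but an adjusted p of 0.809 by edgeR's quasi-likelihood test with Benjamini-Hochberg adjustment. DESeq2 called it, at -2.76 with an adjusted p of 0.00649, in a test that called 54 of 15004 genes. With 1 library left out the edgeR value ran from -3.22 to -1.75, the latter without sham saline library 1, and adjusted p from 0.205 to 1. The log2 fold change in CKD JV001 against CKD saline was 1.76 (SE 0.67, edgeR adjusted p 0.276). A fit of these groups alone with the replicate number as a block, added after seeing the data, called it. That fit gave 1.75 with an edgeR adjusted p of 0.0113 and called 2850 of 14289 genes.

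Markers of atrial cardiomyocytes moved with Nppa across libraries. Myl7, the atrial myosin light chain, was at 492, 12.8 and 145 CPM for sham saline, 149, 270 and 85.3 CPM for sham JV001, 20.5, 19.8 and 10.7 CPM for CKD saline and 59.0, 54.1 and 70.6 CPM for CKD JV001. Sham saline library 1, the highest for Nppa, was also the highest for Myl7, and CKD saline library 3 was the lowest for both. In CKD saline against sham saline, the log2 fold change was -3.67 (SE 0.95, edgeR adjusted p 0.809) for Myl7 and -3.59 (SE 0.94, edgeR adjusted p 0.812) for Sln, the atrial inhibitor of the calcium pump, both farther from 0 than that of Nppa. Over the 12 atrial markers, 10 had a negative log2 fold change in that comparison, with a median of -0.93 beside 0.01 over all genes tested. Their summed level ran from 460 to 1823 CPM for sham saline, 607 to 1240 for sham JV001, 334 to 432 for CKD saline and 380 to 488 for CKD JV001. The atrial growth factor gene Bmp10 had 0 reads in sham saline library 2 and reads in the other 11 libraries. Across the 12 libraries, log2 CPM of Nppa had a Pearson r of 0.903 with the mean log2 CPM of the atrial markers, as a description of libraries that differ in depth and composition.

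Set against atrial markers in the same library, the place of CKD saline depended on the denominator. Nppa was 55.2%, 55.2% and 44.8% of the summed CPM of the 12 atrial markers in CKD saline libraries 1 to 3, against 77.4% to 160.3% for sham saline, 104% to 188% for sham JV001 and 119.6% to 178% for CKD JV001. On that sum CKD saline was lowest, with no overlap with any other group. Per FPKM of Myl7 alone, a denominator chosen after values were seen, CKD saline was not lowest. The ratio of Nppa to Myl7 was 4.08, 19.1 and 4.96 for sham saline and 4.83, 5.92 and 5.05 for sham JV001. It was 7.94, 8.26 and 9.56 for CKD saline and 9.93, 10.3 and 4.42 for CKD JV001. The CKD saline libraries had higher ratios than 5 of the 6 sham libraries; sham saline library 2, which had the lowest Myl7 level of the sham libraries, is the exception at 19.1. In CKD saline the largest part of the atrial sum was Kcnk3, with a mean of 253 CPM beside 310 CPM for sham saline. The ratio of Nppa to Sln was 11.5 to 51.0 for sham saline and 12.6 to 15.7 for sham JV001. It was 22.3 to 24.7 for CKD saline and 13.4 to 28.2 for CKD JV001. Per Myl4, another marker of the list, it was 97.3 to 490 for sham saline and 113 to 123 for sham JV001. It was 179 to 208 for CKD saline and 96.1 to 243 for CKD JV001. Nppa in CKD saline was thus lowest per summed atrial markers and not lowest per Myl7, Sln or Myl4. The part of atrial cells in the Nppa result was not tested.

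The window of 250 bases before the Nppa start is shown because Nppa had the widest range of level. It is RefSeq sequence on GRCm38.p6, chr4:148000472-148000721, plus strand, and capitals mark GATA, the core letters bound by GATA factors, and AAGTG, the core letters bound by Nkx2-5, or their reverse complements TATC and CACTT.
Nppa: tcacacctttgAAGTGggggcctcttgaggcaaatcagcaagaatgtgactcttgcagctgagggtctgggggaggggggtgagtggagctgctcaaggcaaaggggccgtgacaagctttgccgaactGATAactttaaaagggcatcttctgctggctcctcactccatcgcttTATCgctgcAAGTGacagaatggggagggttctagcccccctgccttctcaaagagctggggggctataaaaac
GATA or TATC began 121 and 74 bases before the start and AAGTG 239 and 65 bases before it. Over all 32851 promoter windows of that length in the table, read on both strands, 24.2% held GATA 2 or more times and 10.2% held AAGTG 2 or more times, so both are common strings. Nppb also had GATA 2 times, 94 and 83 bases before its start, and had no AAGTG. A stretch of 30 bases with both matches, on GRCm38.p6 at chr4:147985798-147985827, plus strand, is shown for comparison.
Nppb: atgcagctGATAaatcagaGATAaccccac
A match describes the letters and is not evidence that a factor binds.

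Nppb did not follow Nppa. Its level was 229, 513 and 296 CPM for sham saline, 221, 244 and 238 CPM for sham JV001, 347, 358 and 175 CPM for CKD saline, and 345, 348 and 34.4 CPM for CKD JV001. CKD JV001 library 3 had the lowest level of the 12 libraries, and the groups overlapped in every comparison. Group means were 346 ± 149, 234 ± 12.1, 293 ± 103 and 242 ± 180 CPM (SD, n = 3) in sham saline, sham JV001, CKD saline and CKD JV001. The log2 fold change was -0.24 (SE 0.63, edgeR adjusted p 0.993) in CKD saline against sham saline and -0.27 (SE 0.63, edgeR adjusted p 0.793) in CKD JV001 against CKD saline. Without CKD saline library 3 the first was 0.05, and without CKD JV001 library 3 the second was 0.24. Across libraries, log2 CPM of Nppa and Nppb had a Pearson r of 0.02 (n = 12).

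Because the atrial and B-type genes are neighbours, their ratio within a library was read. Nppa stood at 17.9, 0.972 and 4.95 times Nppb in sham saline and at 6.65, 13.4 and 3.71 times for sham JV001, by FPKM. It stood at 0.961, 0.931 and 1.20 times for CKD saline and at 3.47, 3.26 and 18.5 times for CKD JV001. The CKD saline ratios were all near 1, and sham saline library 2 lay among them. Every JV001 library of either condition was above 3, as were sham saline libraries 1 and 3. The highest ratio, in CKD JV001 library 3, went with the lowest Nppb level and not with a high Nppa level. Relative to the ventricular myosin gene Myh6, Nppb was at 0.0374 to 0.0738 in the 6 sham libraries, 0.0575 to 0.0637 for CKD saline, and 0.110, 0.106 and 0.0202 in CKD JV001 libraries 1 to 3, so the CKD JV001 libraries held both the highest and the lowest of these ratios.

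Nppc, the C-type ligand gene, was barely detected. It had 8 reads in sham saline library 1, 4 in CKD JV001 library 2, 2 in CKD JV001 library 3 and 0 in the other 9 libraries. The level was 0.257 CPM in sham saline library 1, and no comparison between groups could be made at this depth.

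Npr1, the receptor of the atrial and B-type peptides, was highest in CKD JV001 and in 1 library of CKD saline. Its level was 40.5, 9.84 and 14.4 CPM for sham saline and 32.6, 37.2 and 27.5 CPM for sham JV001. It was 20.9, 18.0 and 67.2 CPM for CKD saline and 52.4, 55.8 and 67.7 CPM for CKD JV001. CKD JV001 did not overlap either sham group, while CKD saline library 3 lay with the CKD JV001 libraries. Group means were 21.6 ± 16.5, 32.4 ± 4.84, 35.3 ± 27.6 and 58.6 ± 8.05 CPM (SD, n = 3), in the order sham saline, sham JV001, CKD saline, CKD JV001. The log2 fold change was 0.85 (SE 0.55, edgeR adjusted p 0.308) in CKD JV001 against sham JV001, and a fit of those groups alone called it, at 0.86 with an edgeR adjusted p of 0.0492, along with 792 of 14373 genes. It was 0.73 in CKD JV001 against CKD saline (SE 0.55, edgeR adjusted p 0.405); without CKD saline library 3 it was 1.59 and called (edgeR adjusted p 0.0444), along with 3287 of 15459 genes. In CKD saline against sham saline it was 0.71 (SE 0.55, edgeR adjusted p 0.942), and -0.12 without CKD saline library 3.

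Endothelial markers moved with Npr1 in nearly fixed proportion. The 10 markers summed to 1701, 486 and 701 CPM for sham saline, 1302 to 1479 CPM for sham JV001, 994, 969 and 3299 CPM for CKD saline, and 2621 to 3013 CPM for CKD JV001, with none at 0. Npr1 was 1.86% to 2.66% of that sum in the 12 libraries, a 1.43-fold range where its own level spanned 6.88-fold. Relative to Cdh5, the cadherin of endothelial junctions, Npr1 was at 0.103 to 0.180 by FPKM, a 1.75-fold range. By mean log2 CPM of 12 ventricular markers, the order of the 12 libraries was the exact reverse of their order by Npr1 (Spearman rho -1), and the Pearson r was -0.81. All 10 endothelial markers had a positive log2 fold change in CKD JV001 against sham JV001, with a median of 1.10 beside 0.02 over all genes tested. The part of endothelial cells in the Npr1 result was not tested.

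**Figure D2:**
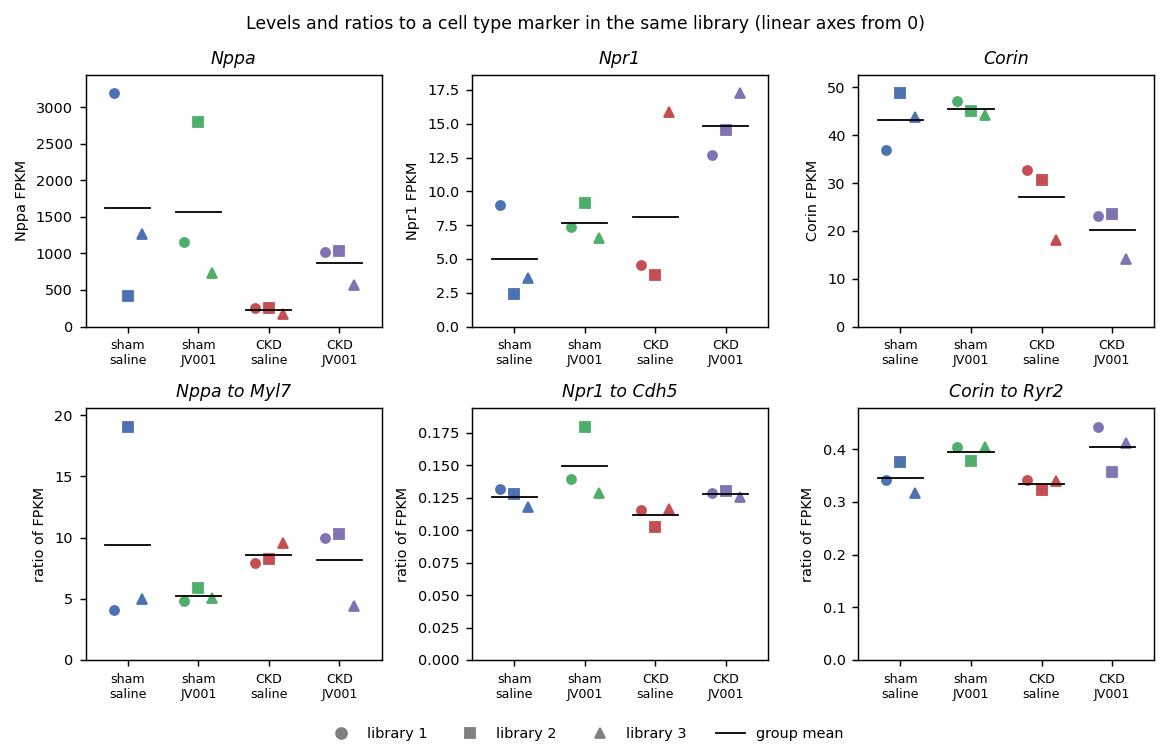
Top row: FPKM of Nppa, Npr1 and Corin in each library. Bottom row: the ratio of each to a marker of a cell type in the same library (Myl7 for atrial myocytes, Cdh5 for endothelial cells, Ryr2 for cardiomyocytes), on linear axes that start at 0; symbols mark libraries 1 to 3 and black lines are group means. Npr1 to Cdh5 stays between 0.103 and 0.180 and Corin to Ryr2 between 0.317 and 0.443, and Nppa to Myl7 has 1 library at 19.1.

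Npr2, the receptor of the C-type peptide, was the steadiest of the 8 genes. Its level was 56.0, 55.0 and 57.8 CPM for sham saline, 60.8, 52.7 and 51.3 CPM for sham JV001, 53.3, 46.2 and 72.7 CPM for CKD saline, and 58.7, 57.5 and 53.5 CPM for CKD JV001. The groups overlapped in every comparison, and CKD saline library 3 had both the highest level and the only one above 60.8 CPM. Group means were 56.3 ± 1.45, 54.9 ± 5.12, 57.4 ± 13.7 and 56.6 ± 2.76 CPM (SD, n = 3). Log2 fold changes in the 4 comparisons of groups ran from -0.03 to 0.04, each with an SE of 0.16. By FPKM, Npr1 was at 0.164 to 1.16 times Npr2, and it exceeded Npr2 in CKD JV001 library 3 alone.

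Npr3, the clearance receptor, was highest in CKD JV001. Its level was 22.9, 14.1 and 15.9 CPM for sham saline, 14.3, 24.2 and 14.7 CPM for sham JV001, 13.7, 15.0 and 32.7 CPM for CKD saline, and 39.7, 45.5 and 28.8 CPM for CKD JV001. The CKD JV001 libraries did not overlap either sham group, and CKD saline library 3 lay between CKD JV001 libraries 3 and 1. Group means were 17.6 ± 4.68, 17.7 ± 5.63, 20.4 ± 10.6 and 38.0 ± 8.45 CPM (SD, n = 3). In CKD JV001 against sham JV001 the log2 fold change was 1.10 (SE 0.36, unadjusted p 0.00999, adjusted p 0.114 by edgeR). DESeq2 called it, at 1.12 with an adjusted p of 0.0279, in a test that called 1984 of 15004 genes. The log2 fold change was 0.90 in CKD JV001 against CKD saline (SE 0.35, edgeR adjusted p 0.276). Without CKD saline library 3 it was 1.39 and called (edgeR adjusted p 0.0326), and without library 3 of both CKD groups it was 1.54 (edgeR adjusted p 0.0202), with 3287 of 15459 and 3043 of 15285 genes called in those fits.

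Npr3 is known from the endocardium, the inner lining of the heart, among other cells. The 7 endocardial markers summed to 45.2 to 96.3 CPM for sham saline, 59.3 to 89.3 CPM for sham JV001, 49.1, 54.9 and 132 CPM for CKD saline, and 138 to 172 CPM for CKD JV001. Hapln1 had 0 reads in 3 sham libraries and no other marker of that list was at 0. Npr3 had a Pearson r of 0.937 with the mean of the endocardial markers and of 0.882 with that of the 10 fibroblast markers (log2 CPM, n = 12). It was 16.8% to 35.1% of the endocardial sum, and 0.753% to 5.11% of the fibroblast sum. Of the endocardial markers, 6 of 6 tested had a positive log2 fold change in CKD JV001 against sham JV001, with a median of 1.22, and their part in the Npr3 result was not tested. Relative to Npr1, Npr3 was at 0.217 to 0.730 by FPKM, so the cyclase receptor was above the clearance receptor in all 12 libraries.

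Corin, the protease that activates the atrial peptide, was lower in both CKD groups than in the sham groups. Its level was 209, 255 and 224 CPM for sham saline and 265, 232 and 233 CPM for sham JV001. It was 188, 181 and 96.6 CPM for CKD saline and 120, 114 and 70.4 CPM for CKD JV001. All 6 CKD libraries lay below all 6 sham libraries, and CKD saline library 3 lay within the CKD JV001 range. The share of all genes with that separation was not computed. By pairs of groups, 6.44% of all genes were lower without overlap in CKD saline against sham saline. The share was 20.1% in CKD JV001 against sham JV001. Group means were 229 ± 23.5, 243 ± 19.1, 155 ± 51.0 and 101 ± 27.1 CPM (SD, n = 3). In CKD JV001 against sham JV001 the log2 fold change was -1.26 (SE 0.26, unadjusted p 0.000541, adjusted p 0.0818 by edgeR). It was called there by DESeq2 (-1.25, adjusted p 0.000863), in a fit of those groups alone (-1.26, edgeR adjusted p 0.0340) and without library 3 of both CKD groups (-1.07, edgeR adjusted p 0.00254). These 3 called many other genes as well, 1984 of 15004, 792 of 14373 and 1433 of 15285 in that order. In CKD saline against sham saline it was -0.56 (SE 0.26, edgeR adjusted p 0.941), and -0.29 without CKD saline library 3. Between CKD JV001 and CKD saline it was -0.62 (SE 0.26, edgeR adjusted p 0.276). There it was called with the replicate number as a block in a fit of those groups alone (-0.58, edgeR adjusted p 0.0268), without CKD saline library 3 (-0.88, edgeR adjusted p 0.0334) and without library 3 of both CKD groups (-0.69, edgeR adjusted p 0.0202), which called 2850 of 14289, 3287 of 15459 and 3043 of 15285 genes.

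Cardiomyocyte genes moved with Corin. Ryr2, the calcium release channel of cardiomyocytes, had a log2 fold change of -1.28 (SE 0.29, edgeR adjusted p 0.0883) in CKD JV001 against sham JV001, and Myh6, the main ventricular myosin, had -1.07 (SE 0.36, edgeR adjusted p 0.116). All 12 ventricular markers had a negative log2 fold change in that comparison, with a median of -0.77. Relative to Ryr2, Corin was at 0.341, 0.375 and 0.317 for sham saline, 0.404, 0.377 and 0.405 for sham JV001, 0.341, 0.323 and 0.340 for CKD saline, and 0.443, 0.357 and 0.413 for CKD JV001. This ratio spanned 1.40-fold where Corin itself spanned 3.77-fold in CPM, and CKD JV001 overlapped sham JV001 on it. Ryr2 was chosen as denominator after values were seen, and the sum of the 12 ventricular markers gave another order. Corin was 0.187%, 0.179% and 0.172% of that sum by CPM in CKD saline libraries 1 to 3, below the 0.202% to 0.250% of sham saline and the 0.237% to 0.280% of sham JV001. It was 0.195%, 0.183% and 0.251% for CKD JV001, where library 3 lay among the sham JV001 libraries and libraries 1 and 2 lay below them. Markers of other cells ran opposite to Corin, most closely those of neutrophils (Pearson r -0.94 with their mean log2 CPM, n = 12), beside 0.894 for the ventricular markers. The part of cardiomyocyte RNA and of neutrophils in the Corin result was not tested.

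Mme, the neprilysin gene, had low counts, from 71 to 244 reads. Its level was 5.82, 5.14 and 6.32 CPM for sham saline, 4.95, 6.25 and 6.18 CPM for sham JV001, 3.59, 3.99 and 2.82 CPM for CKD saline, and 5.16, 3.66 and 4.08 CPM for CKD JV001. CKD saline lay below both sham groups without overlap, and CKD JV001 overlapped both CKD saline and the sham groups. Group means were 5.76 ± 0.590, 5.79 ± 0.734, 3.47 ± 0.595 and 4.30 ± 0.775 CPM (SD, n = 3). The log2 fold change was -0.73 (SE 0.23, unadjusted p 0.00822, adjusted p 0.941 by edgeR) in CKD saline against sham saline and 0.31 (SE 0.23, edgeR adjusted p 0.401) in CKD JV001 against CKD saline.

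The first comparison, CKD saline against sham saline, shows the CKD model without JV001. Of the 7 genes tested, 0 passed edgeR's test, where 0% of the 15004 genes passed; DESeq2 called 1 of the 7, Nppa, and 54 genes in all. At an unadjusted p below 0.05 there were 2 genes, Nppa and Mme, where 4.95% of all genes were below it. Nppa, Corin and Mme were lower without overlap between the groups, 3 of 7, where 6.44% of all genes were; the other 4 overlapped. The median log2 fold change was -0.24 over the 7 genes and 0.01 over all genes tested. Without CKD saline library 3 the direction was the opposite for Nppb, Npr1, Npr2 and Npr3, at 0.05, -0.12, -0.15 and -0.27.

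The second comparison, CKD JV001 against CKD saline, shows JV001 within the CKD model. Here 0 of 7 genes passed edgeR's test, where 0% of all genes did, and DESeq2 called 0 of the 7. At an unadjusted p below 0.05 were Nppa and Npr3 in the higher direction and Corin in the lower, 3 of 7, where 18% of all genes were below it. Only Nppa did not overlap between the groups, with 8.22% of all genes higher without overlap. The median log2 fold change was 0.31 over the 7 genes and 0.02 over all genes tested. Libraries of these groups with the same number had correlated deviations from their group means, at 0.296, 0.289 and 0.492 for numbers 1 to 3. The best correlation with another number was 0.270, 0.311 and -0.38, so only library 3 paired clearly with its own number. With the number as a block in a fit of these groups alone edgeR called Nppa and Corin, 2 of 7, and 2850 of 14289 genes. The same block in the fit of all 12 libraries called 0 genes.

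The third comparison, sham JV001 against sham saline, shows JV001 without the CKD model. Again 0 of 7 genes passed edgeR's test, where 0% of all genes did, 0 of 7 were below an unadjusted p of 0.05, where 2.84% of all genes were, and DESeq2 called 0 of 7. None of the 7 was free of overlap between the groups, while 12.4% of all genes were. Log2 fold changes ran from -0.56 (SE 0.63) for Nppb to 0.59 (SE 0.55) for Npr1, and each edgeR adjusted p was 0.9997. For Nppa it was -0.11 (SE 0.65), and 0.93 without sham saline library 1.

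The fourth comparison, CKD JV001 against sham JV001, shows the CKD model where both groups had JV001. In edgeR 0 of 7 genes passed, where 0.02% of all genes did; DESeq2 called Npr3 and Corin, 2 of 7, and 1984 genes in all. Npr1 and Npr3 were higher without overlap, 2 of 7, where 22.9% of all genes were, and Corin was lower without overlap, 1 of 7, where 20.1% were. At an unadjusted p below 0.05 were Npr3 and Corin, 2 of 7, where 27.5% of all genes were, so this share is near that of all genes. The log2 fold change of Nppa was -0.92 (SE 0.65, edgeR adjusted p 0.355), and -0.24 without sham JV001 library 2.

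The interaction asks whether the difference with JV001 in the CKD model departs from that in sham mice. It passed for 0 of 7 genes in edgeR, where 0% of all genes passed, with 0 of 7 below an unadjusted p of 0.05, where 3.78% of all genes were, and DESeq2 called 0 of 7. The largest value was for Nppa, 1.87 (SE 0.93, edgeR adjusted p 0.840), which was 0.85 when sham saline library 1 was left out and 2.52 when library 2 of sham JV001 was. It was followed by Npr3 at 0.89 (SE 0.50, edgeR adjusted p 0.840) and Corin at -0.70 (SE 0.37, edgeR adjusted p 0.840). The 5 comparisons share groups, so their values for a gene are not separate measurements.

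**Figure D3:**
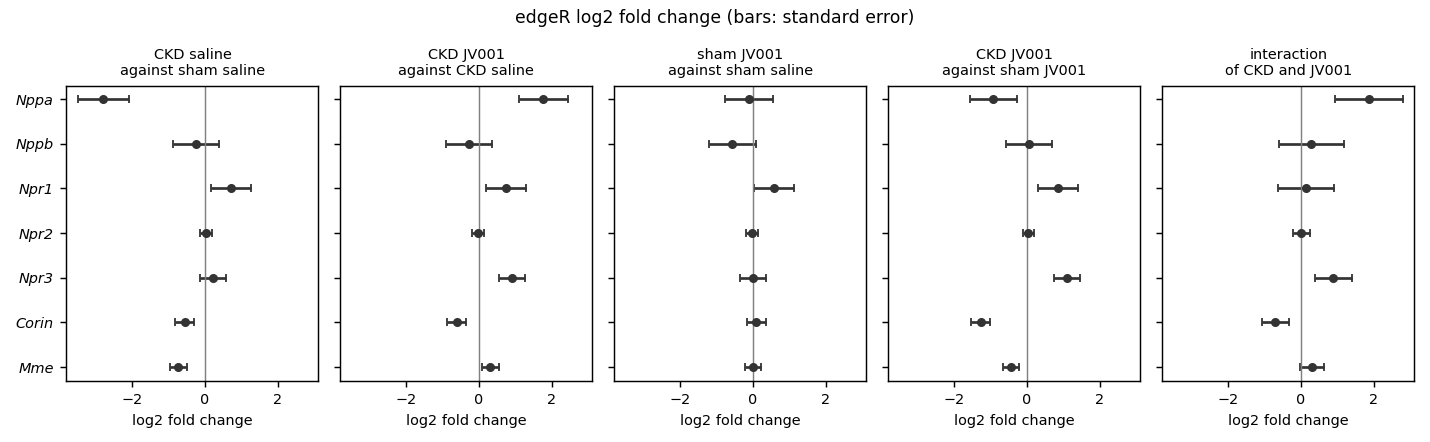
Log2 fold change of the 7 tested genes in each of the 5 comparisons, from edgeR; points are estimates, bars are 1 standard error and the grey line marks 0. Nppa lies at -2.79 in CKD saline against sham saline and at 1.76 in CKD JV001 against CKD saline, and Npr2 lies near 0 in all panels.

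**Figure D4:**
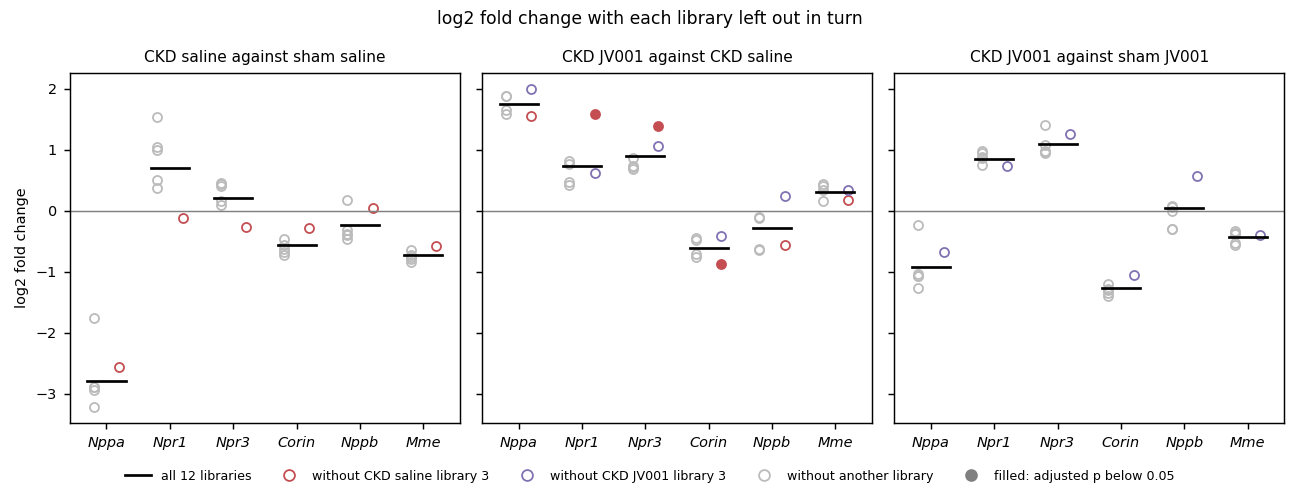
Log2 fold change of 6 tested genes in 3 comparisons with each library left out in turn; black lines show all 12 libraries, red rings leave out CKD saline library 3, purple rings leave out CKD JV001 library 3, grey rings leave out another library, and filled symbols have an edgeR adjusted p below 0.05. The filled symbols are Npr1 at 1.59, Npr3 at 1.39 and Corin at -0.88, all without CKD saline library 3, in CKD JV001 against CKD saline.

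The other genes of the pathway were read from lists, and edgeR passed 0 genes of every list in each of the 5 comparisons. Convertases and further peptidases were the first group, with 7 of 9 genes tested. In CKD JV001 against sham JV001, 4 of the 7 were higher at an unadjusted p below 0.05, where 14.8% of all genes were. Many markers of cells other than myocytes were higher at that p in the same comparison. The counts were 9 of 10 for fibroblasts, 8 of 10 for macrophages and 7 of 7 tested for neutrophils. They were 5 of 10 for smooth muscle and pericytes, 4 of 6 tested for endocardium and 3 of 10 for endothelium. Of 6 epicardial markers, 0 were higher at that p. The part of these cells here and in the phosphodiesterase counts was not tested. Pcsk6, a convertase that activates corin, had 88.2, 96.3 and 140 CPM in CKD JV001 against 37.0, 53.9 and 26.2 CPM for sham JV001, a log2 fold change of 1.47 (SE 0.55, edgeR adjusted p 0.136). It also stood at 91.2 CPM in CKD saline library 3, against 27.3 and 25.3 CPM in libraries 1 and 2. Ece1, which makes endothelin, had a log2 fold change of 1.21 (SE 0.46, edgeR adjusted p 0.140) in that comparison. Furin, the convertase that can cut the B-type precursor, was between 76.8 and 109 CPM in all 12 libraries. Ide, the insulin-degrading enzyme, which also degrades atrial peptide, had a log2 fold change of -0.86 (SE 0.39, edgeR adjusted p 0.277) in CKD JV001 against CKD saline and was at 28.6 CPM in CKD JV001 library 3. Ostn, whose peptide osteocrin binds the clearance receptor, stayed at or below 0.198 CPM.

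Downstream of the receptors lie cyclic GMP, its kinase and the phosphodiesterases that break it down. Of 11 tested genes that make cyclic GMP or act on its signal, 2 were higher and 2 lower at an unadjusted p below 0.05 in CKD JV001 against sham JV001. Of all genes, 14.8% were higher and 12.7% lower at that p, so these counts are near the shares of all genes. Rgs2, a regulator of G protein signals that the cyclic GMP kinase activates, had 22.2, 22.6 and 15.5 CPM in CKD JV001 against 50.6, 54.5 and 35.1 CPM for sham JV001 (log2 fold change -1.22, SE 0.21, edgeR adjusted p 0.0647). It was also lower in CKD saline, at 17.4, 23.2 and 23.2 CPM, than in sham saline, at 37.8, 37.0 and 31.4 CPM, without overlap. Of 10 phosphodiesterase genes, 5 were higher and 2 lower at that unadjusted p in CKD JV001 against sham JV001, where 14.8% of all genes were higher and 12.7% lower. Pde3a, a phosphodiesterase inhibited by cyclic GMP, had 48.0, 52.4 and 38.4 CPM in CKD JV001 against 90.0, 87.2 and 89.1 CPM for sham JV001, with no overlap (log2 fold change -0.94, SE 0.16, edgeR adjusted p 0.0647). In CKD saline it had 57.5, 60.7 and 44.8 CPM, against 101, 109 and 94.7 CPM for sham saline, also with no overlap. Lower levels without overlap, as for Rgs2 and Pde3a, held for 6.44% of all genes in the saline groups and 20.1% under JV001. Pde9a, which degrades cyclic GMP from natriuretic peptide receptors, was at 0.333 to 1.83 CPM in the other groups and at 3.83, 4.99 and 7.25 CPM for CKD JV001 (log2 fold change 1.99, SE 0.56, edgeR adjusted p 0.0991 against sham JV001).

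Transcription factors that act on Nppa and Nppb in heart muscle mostly had negative log2 fold changes, also without JV001 or without the CKD model. Of 15 tested, 13 were negative in CKD saline against sham saline (median -0.22), and 14 in sham JV001 against sham saline (median -0.145). In the former, 4 were lower and 0 higher at an unadjusted p below 0.05, where 4.95% of all genes were below it. In the latter, 0 were lower and 1 higher, where 2.84% of all genes were below it. Of 15 tested, 13 had a negative log2 fold change in CKD JV001 against sham JV001, and 7 were below an unadjusted p of 0.05, all lower, where 12.7% of all genes were lower at that p; the median was -0.43. Gata6, a GATA factor, had -0.81 (SE 0.17, edgeR adjusted p 0.0826) and Tead1 had -0.85 (SE 0.18, edgeR adjusted p 0.0841). Among 13 tested genes of hypertrophy and stretch, 5 had a positive and 8 a negative log2 fold change in CKD JV001 against sham JV001. At an unadjusted p below 0.05, 1 was higher and 3 lower, where 14.8% of all genes were higher and 12.7% lower. Of these, Xirp1, which encodes an actin-binding protein of the intercalated disc, had -1.36 (SE 0.37, edgeR adjusted p 0.0961). Actn1, a non-muscle actinin, had 1.43 (SE 0.50, edgeR adjusted p 0.122). The 12 ventricular markers were lower in the same comparison by a median of 0.77 on the log2 scale, and their part in these values was not tested.

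Genes beside Nppa and Nppb on chromosome 4 were read for comparison with the pair. Clcn6, a chloride transporter gene next to Nppa, had 9.27 to 17.3 CPM over the 12 libraries, and its log2 fold change was 0.02 (SE 0.21, edgeR adjusted p 0.997) in CKD saline against sham saline, where Nppa had -2.79. Agtrap, which encodes a protein that binds the AngII receptor, had 9.14e-05 in that comparison (SE 0.15). Mfn2, a gene of mitochondrial fusion, had -0.79 (SE 0.30, edgeR adjusted p 0.139) in CKD JV001 against sham JV001. The sources used here do not give the counting mode or strand setting, so reads from overlapping transcripts cannot be separated.

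The genes whose log2 CPM followed each of the 7 most closely over the 12 libraries, among 11926 genes with a mean of at least 1 CPM, are given as a description; the libraries share depth and composition. For Nppa they were Tmem163 (Pearson r 0.960), Sln (0.954) and Myl7 (0.946). For Nppb they were Rhd (0.984), Spr (0.982) and Bloc1s1 (0.971), and for Npr1 they were Plscr4 (0.997), Slc28a2 (0.991) and Fam193b (0.989). For Npr3 they were Smoc1 (0.969), Bace2 (0.967) and Mfap4 (0.963), and for Corin they included Pank1 (0.992) and Lpin1 (0.988). Npr2, with Ctns (0.851), Cyth1 (0.831) and Ipmk (0.819), and Mme, with Scfd1 (0.848), Zfp799 (0.846) and Fgf12 (0.845), had lower values. Without library 3 of both CKD groups (n = 10), r was 0.723, 0.767 and 0.644 for these Npr2 genes. For the Mme genes it was 0.733, 0.768 and 0.813, and for Rhd, Spr and Bloc1s1 0.923, 0.931 and 0.803. Genes named for Nppa, Npr1, Npr3 and Corin kept 0.947 or more. Among the members over all 12 libraries, Npr1 and Npr3 had an r of 0.815, Npr1 and Corin -0.74, Npr3 and Corin -0.75, and Nppa and Mme 0.760.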

How the data were processed

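RNA was measured in 12 libraries of isolated mouse cardiomyocytes, 3 in each of 4 groups read from the titles. The authors deposited raw counts, 1 whole number per gene symbol and library; the submitters' processing notes name fastp, HISAT2, HTSeq and the build GRCm39, with versions, annotation and strand setting not given in the sources used here. FPKM, which the authors derived from those counts and also deposited, was used here for levels between genes and for ratios within a library. Libraries were made from 1.3 ug of total RNA with a VAHTS kit, per the labels' protocols. Column names were matched by group initial and replicate number, with C read as CKD saline.

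All 12 libraries entered 1 edgeR 4.0.16 fit (R 4.3.3) of 4 group means, tested by quasi-likelihood after TMM scaling. The filterByExpr function, with its minimum count of 10, kept 15004 genes, over which Benjamini-Hochberg adjustment was made, and an adjusted p below 0.05 passed; standard errors are of log2 fold changes. Log2 CPM used a prior count of 2. The code was tested on simulated data. Alternatives were RLE scaling, a stricter filter and no filter, DESeq2 1.42.0, a replicate block, fits of only the groups compared, leaving out each library, CKD saline libraries 1 and 2 summed, and limma 3.58.1 on log2(FPKM + 1) or log2(FPKM + 0.1) (mean FPKM of 0.5 or more). Leaving out library 3 of both CKD groups, summing libraries 1 and 2 in both, and the replicate block in the CKD groups alone were added after seeing the data. Replicate numbers were checked as pairs by the correlation of deviations from group means. Same-numbered libraries had 0.289 to 0.492 in CKD saline against CKD JV001. In each other pair of groups at least 1 pair was at or below 0.1. The block in the CKD groups alone rests on these values, although only library 3 paired clearly with its own number.

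The 8 genes and the lists were chosen with earlier results of these data known. Named genes were the 8 and up to 4 genes per other list by smallest adjusted p. Every gene of the lists of processing partners and chromosomal neighbours, fixed defining markers, and the 3 most alike genes of each tested member could also be named. Myl7, Sln, Myl4, Cdh5, Ryr2 and Myh6 as denominators were chosen after values were seen. So were the values shown for Kcnk3, Rgs2 and Pde3a in the saline groups. Promoter windows are RefSeq (GRCm38.p6), with 8 of 8 genes matched, and coding stretches are from GENCODE M21 on GRCm38, another build than that of the counts, so no read was placed by these coordinates. One gene among the most alike to Corin is not reported here. Limits from a count of 0 cover counting error only.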

Additional observations from a re-analysis of the deposited data

How the results depend on the processing

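Over 609 recomputed log2 fold changes of the 7 tested genes, 62 had the opposite sign, 14 passed the threshold where the reported fit did not, and 533 kept sign and side; none of the reported values had passed. The number of these 7 passing was 0 in 80 of 87 recomputed counts. It was 1 with DESeq2 in CKD saline against sham saline; 2 without library 3 of both CKD groups and 2 with the replicate block in the CKD groups alone in CKD JV001 against CKD saline; and 2 each with only the groups compared, DESeq2 and without library 3 of both CKD groups in CKD JV001 against sham JV001. Over all genes the same fits called, in that order, 54, 3043 and 2850, and 792, 1984 and 1433. With 1 library left out the count was 0 to 3 in CKD JV001 against CKD saline, 3 being the value without CKD saline library 3, where 3287 genes were called in all. The replicate block in the fit of all libraries passed 0 genes and changed no call; it gave -0.26 for Nppb in CKD JV001 against sham JV001 and -0.011 for Npr3 in sham JV001 against sham saline, where the sign was opposite, and in the CKD groups alone the block gave 0.018 for Npr2.

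Opposite signs also came from other settings. Without library 3 of both CKD groups, CKD saline against sham saline gave 0.049 for Nppb, -0.12 for Npr1, -0.15 for Npr2 and -0.27 for Npr3, and CKD JV001 against CKD saline gave 0.20 for Npr2. The stricter filter gave 0.0083 for Npr2 in the latter. Limma on log2(FPKM + 1) and log2(FPKM + 0.1), in that order, gave -0.075 and -0.082 for Npr2 in CKD saline against sham saline, 0.17 and 0.18 for Npr2 in CKD JV001 against CKD saline, 0.16 and 0.16 for Nppa and -0.00062 and -0.0095 for Npr3 in sham JV001 against sham saline, -0.44 and -0.45 for Nppb in CKD JV001 against sham JV001, and -0.13 and -0.14 for Nppb in the interaction. Summing libraries 1 and 2 in both CKD groups gave -0.28 for Nppb in CKD JV001 against sham JV001 and -0.083 for Npr1 and -0.082 for Npr2 in the interaction; summing those of CKD saline gave -0.14 for Npr1 and -0.065 for Npr2 there. The cause was not tested.

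With each library left out in turn, values ran from -3.22 to -1.75 for Nppa, -0.47 to 0.18 for Nppb, -0.12 to 1.55 for Npr1, -0.15 to 0.17 for Npr2 and -0.27 to 0.45 for Npr3 in CKD saline against sham saline. They ran from -0.64 to 0.24 for Nppb, 0.42 to 1.59 for Npr1, -0.14 to 0.17 for Npr2, 0.68 to 1.39 for Npr3 and -0.88 to -0.41 for Corin in CKD JV001 against CKD saline. In sham JV001 against sham saline they ran from -0.77 to 0.93 for Nppa, -0.10 to 0.012 for Npr2, -0.28 to 0.24 for Npr3 and -0.060 to 0.12 for Mme. In CKD JV001 against sham JV001 they ran from -0.30 to 0.56 for Nppb and -0.0077 to 0.12 for Npr2, and in the interaction from 0.85 to 2.52 for Nppa, -0.14 to 0.80 for Nppb, -0.67 to 0.99 for Npr1 and -0.11 to 0.21 for Npr2. Where 2 libraries of a group remained, the spread was that of all groups. Depth limited Nppc, with at most 8 reads.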
